A study of Mus musculus with 29 samples.

Results

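The sites described here are all peaks of the RHOX11-HA list, the regions where chromatin carrying HA-tagged RHOX11 was recovered from mouse fibroblasts. The list holds 4579 peaks, of 304922 in the 28 lists of the series. No measured value was used to choose among them. They were recovered by chromatin immunoprecipitation followed by sequencing (ChIP-seq) with an antibody to the HA tag, and the series compares where many transcription factors bind in the same cell line. The lines are NIH-3T3, an established mouse fibroblast line, each infected with a lentivirus that carries 1 factor with an HA tag at its C-terminus behind a doxycycline-inducible promoter. In the SOX2-YPET OCT4-HA line, SOX2 fused to the fluorescent protein YPet was co-expressed with OCT4-HA. FOXA1_RR-HA and FOXA1_SW-HA carry mutants of FOXA1 that the paper describes as reduced in non-specific DNA binding. RHOX11-HA and all 23 other constructs were induced overnight with doxycycline at 500 ng/ml, so every list comes from cells that overexpress the factor named. RHOX11-HA was profiled in 1 sample, from 1 stably infected line. No sample without a tagged factor was compared here, and with peak positions alone the fibroblast identity of the cells could not be checked against marker expression.

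RHOX11 belongs to the Rhox family of homeodomain proteins, which are encoded in a cluster on the X chromosome and are known for expression in reproductive tissues such as testis. A homeodomain is a DNA-binding fold that in many proteins recognizes short sequences with a TAAT core. Promoters of housekeeping genes are typically rich in CpG dinucleotides, lack a TATA box and carry sites for other protein families, among them the ETS factors, whose binding sequence is built around GGAA. Distal sites in fibroblasts often hold the sequence TGACTCA, bound by AP-1, a dimer of FOS and JUN proteins.

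The stretches below show the sequences that recurred most in the RHOX11-HA peaks and the places where the peaks were densest. Each is 80 bases of mm10 on the strand given, 5′ to 3′. In the first 4, upstream of genes for a cytosolic ribosomal protein, a mitochondrial ribosomal protein, a proteasome subunit and a replication factor, the capitals mark CCGGAAG or its reverse complement. Where these overlap, as in Gins4, only the first is in capitals.
Rps18, chr17:33955697-33955776, minus strand: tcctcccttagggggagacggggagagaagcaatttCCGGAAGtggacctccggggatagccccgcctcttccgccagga
Mrpl34, chr8:71464852-71464931, plus strand: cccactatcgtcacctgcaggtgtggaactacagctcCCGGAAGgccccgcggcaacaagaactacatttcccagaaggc
Psma6, chr12:55398656-55398735, plus strand: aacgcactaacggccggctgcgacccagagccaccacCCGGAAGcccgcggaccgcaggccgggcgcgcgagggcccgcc
Gins4, chr8:23237747-23237826, minus strand: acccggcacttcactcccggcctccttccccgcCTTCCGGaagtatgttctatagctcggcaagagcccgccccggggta

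Away from promoters the sequence counted most above its surroundings was TGACTCA. It is shown in capitals, or as its reverse complement, in a pair of distal peaks shared with other constructs (nearest genes Vmn1r2 and Zfp386) and a pair found for RHOX11-HA alone (nearest genes Cdk14 and Sox9). The gene names serve as labels only. In that order, the peak midpoints lay -101871, -215279, 119088 and -700622 bp from the start of the gene named (negative upstream).
Vmn1r2, chr4:3065434-3065513, plus strand: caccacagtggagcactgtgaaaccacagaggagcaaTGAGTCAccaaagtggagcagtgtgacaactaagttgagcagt
Zfp386, chr12:115832348-115832427, plus strand: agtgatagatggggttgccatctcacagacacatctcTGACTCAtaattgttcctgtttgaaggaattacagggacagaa
Cdk14, chr5:5146244-5146323, plus strand: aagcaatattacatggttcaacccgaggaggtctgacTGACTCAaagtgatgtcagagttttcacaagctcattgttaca
Sox9, chr11:112081511-112081590, plus strand: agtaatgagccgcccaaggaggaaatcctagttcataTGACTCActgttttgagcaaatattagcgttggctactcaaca

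The last 3 stretches are centers of peaks in the densest stretch of the genome, on chromosome 5, that overlapped no peak of any other construct. None of them holds CCGGAA or TGACTCA. They too are labelled by the nearest gene, from whose start the midpoints lay -79436, -23539 and -269295 bp.
Zfp804b, chr5:6955919-6955998, plus strand: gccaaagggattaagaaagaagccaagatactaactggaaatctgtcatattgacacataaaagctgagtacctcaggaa
Tex47, chr5:7280546-7280625, plus strand: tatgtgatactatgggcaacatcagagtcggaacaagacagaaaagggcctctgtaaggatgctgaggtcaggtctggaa
Gm8871, chr5:10678470-10678549, plus strand: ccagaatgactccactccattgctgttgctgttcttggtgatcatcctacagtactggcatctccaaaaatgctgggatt

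RHOX11-HA peaks fell into a promoter part and a distal part of nearly equal size. Of the 4579 peaks, 2058 were centered no farther than 1 kb from a protein-coding start, or 44.9% (95% exact binomial interval 43.5 to 46.4). These promoter windows make up 2.44% of the genome with known sequence, so the share was 18.4 times that of even placement. The remaining 2521 distal peaks lay mostly between genes (30.1% of all peaks) or in introns (21.6%), with 0.983% in coding exons and 2.45% in other exons. The distal peaks lay at a median distance of 55.2 kb from the nearest coding start. All intervals given for shares cover counting error over peaks only, since the list has no replicate and no read depth or peak height was analysed here.

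The lists held between 52 and 61991 peaks with a median of 5074, and RHOX11-HA ranked 16 of 28 in length. It ranked 2 in promoter share. TEAD1-HA, a TEA-domain factor of the Hippo pathway, had 45.3% of its 14959 peaks at promoters, and TOX3-HA, a high-mobility-group factor, 38.6% of 1286. The promoter share of every other list was 20.7% or lower, down to 2.19% for CDX2-HA, another homeodomain factor. Against TEAD1-HA the log2 odds ratio was -0.02 (95% interval -0.12 to 0.08; Fisher's exact test, two-sided, adjusted p = 0.684 over 3 comparisons). Against TOX3-HA it was 0.38 (0.20 to 0.56; exact adjusted p = 6.89e-05), and the call was lost without sites held by 10 or more other constructs (0.19, exact adjusted p = 0.0721). Against SIX6-HA, a homeodomain factor with 6075 peaks of which 8.77% lay at promoters, the log2 odds ratio was 3.09 (2.93 to 3.24), and log10 of the exact adjusted p was -415. These tests set single libraries against each other and not the factors. TEAD1-HA and TOX3-HA were compared because their promoter shares were nearest to that of RHOX11-HA, and SIX6-HA as a homeodomain list of like length. A small difference from TEAD1-HA was thus built into the choice, so the missing call there cannot be read as likeness. Without chromosomes 1, 5 and 15, where distal peaks were concentrated as described below, the RHOX11-HA promoter share was 59.7%. Its log2 odds ratio to TEAD1-HA was then 0.74. These chromosomes were picked for their many distal RHOX11-HA peaks, so a higher promoter share without them follows largely from that choice.

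**Figure D1:**
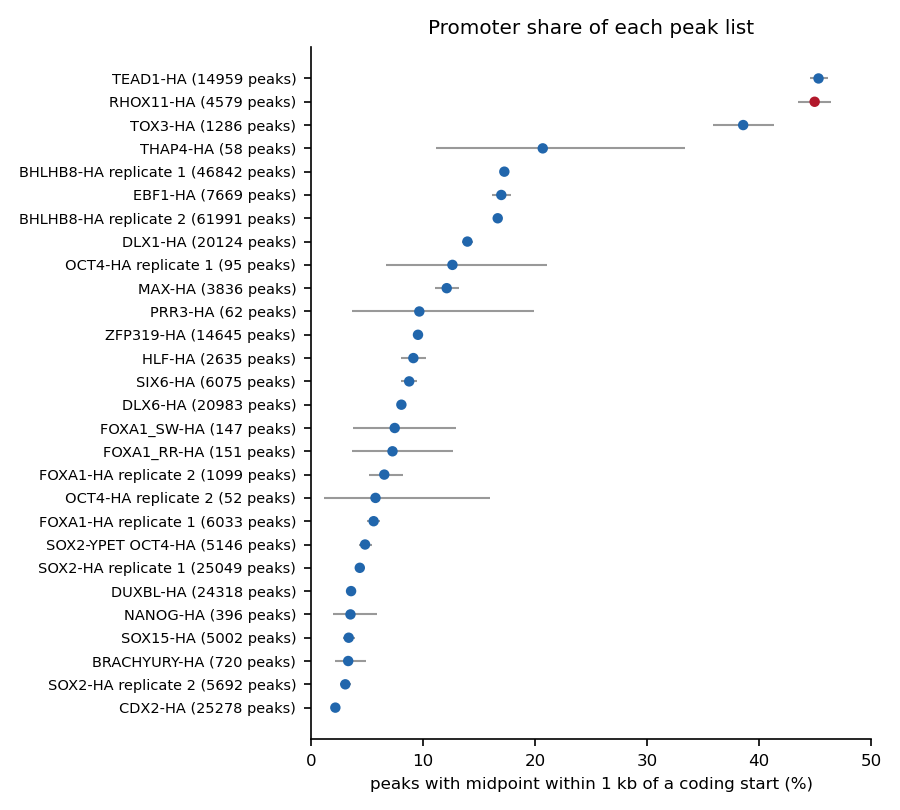
Share of peaks with a midpoint within 1 kb of a coding start (x axis, percent) for each of the 28 lists (y axis, with its number of peaks), with 95% exact intervals as bars. RHOX11-HA, the red point at 44.9%, lies beside TEAD1-HA at 45.3%, and the 25 lists below TOX3-HA reach at most 20.7%.

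RHOX11-HA peaks were narrow. The median width was 238 bp over a range of 165 to 1882 bp, and promoter peaks (276 bp) were wider than distal ones (215 bp). Peaks found for no other construct had a median of 201 bp, and those at sites of 10 or more other constructs 371 bp. Width is the only property of a peak in the list besides its position, so it is given here in place of a height.

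Promoter peaks were centered on the start site, slightly upstream. Their midpoints had a median offset of -20 bp (quartiles -98 and 44 bp, negative values upstream), 61.6% lay within 100 bp and 83.3% (81.6 to 84.9) within 200 bp. In TEAD1-HA the median was 114 bp downstream and 62.3% of promoter peaks lay within 200 bp, and in BHLHB8-HA, a basic helix-loop-helix factor, the values were 70 bp and 45.2%. By these values RHOX11-HA promoter peaks sat nearer to the start than those of both other constructs, a difference that was not tested.

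**Figure D2:**
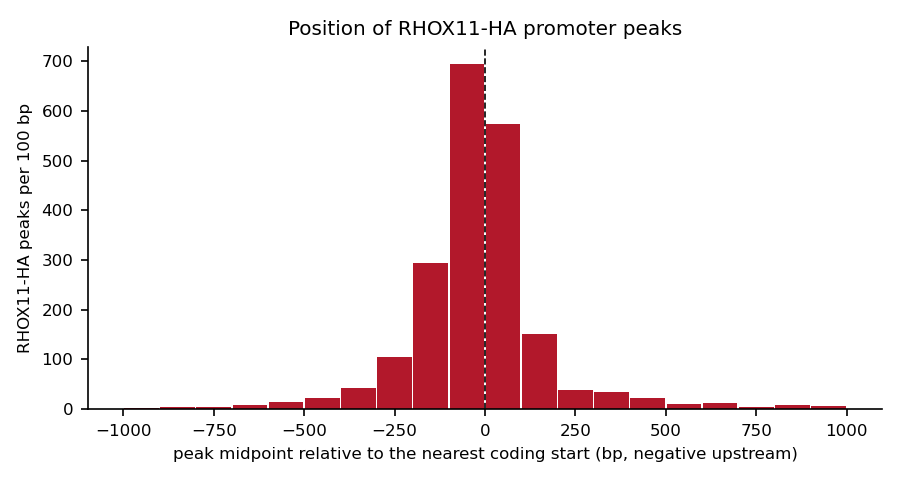
Number of RHOX11-HA promoter peaks per 100 bp (y axis) by the distance of their midpoint from the nearest coding start (x axis, bp, negative upstream). The median is at -20 bp, and 96.2% lie within 500 bp.

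At the promoters, RHOX11-HA reached 2431 of 21853 protein-coding genes, which is 11.1% and serves as the background for every gene list below. The corresponding shares were 32.1% for TEAD1-HA, 46.8% for BHLHB8-HA and 8.07% for DLX6-HA. With peaks of at least 300 bp alone the RHOX11-HA count was 1079 genes. A single peak often served a pair of genes, since 423 promoter peaks (20.6%) lay within 1 kb of the starts of 2 or more genes. Of genes with a divergent neighbor, a gene transcribed from the opposite strand whose start lies within 1 kb, 519 of 1536 had a RHOX11-HA peak (33.8%, interval 31.4 to 36.2), against 9.41% of the other genes. The same shares were 39.6% and 31.6% for TEAD1-HA, and 79.4% and 44.3% for BHLHB8-HA. The counts of divergent pairs include genes that share 1 peak, so they are not independent.

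Ribosomal protein genes had the highest share of the 28 gene lists counted, with 39 of 83 (47.0%) against the 11.1% of all genes. Beside their own backgrounds given above, BHLHB8-HA reached 71.1% of this list, DLX6-HA 19.3% and TEAD1-HA 21.7%, so that TEAD1-HA alone of these was under its background. The widest of these peaks lay at Rpl7a (952 bp), which was held by 20 of the other 23 constructs, and its midpoint was 800 bp inside the gene. Next came Rps7 (618 bp), Rpl28 (528 bp) and Rps27a (493 bp, a ribosomal protein made as a fusion with ubiquitin), held by 3, 2 and 1 other constructs. The peak at Rpl27a (364 bp) overlapped none. Of the mitochondrial ribosomal protein genes 30 of 78 had a peak (38.5%), led by Mrps18b with a peak of 643 bp that was found in no other list. Mrpl18 (535 bp), Mrpl47 (451 bp) and Mrps9 (450 bp) followed.

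Proteasome subunits, which form the particle that degrades ubiquitin-tagged proteins, had a peak at 17 of 39 genes (43.6%). Psmc3, an ATPase of the regulatory particle, held a peak of 430 bp with its midpoint 2 bp from the start, and Psmd5 and Psmc5 held peaks of 416 and 412 bp. Translation initiation factors were reached at 17 of 55 genes (30.9%), among them Eif2b4 (487 bp), a subunit of the exchange factor for eIF2, Eif2a (447 bp) and Eif4a2 (420 bp), an RNA helicase. The unfolded protein and amino acid stress list had 13 of 33 (39.4%). Its widest peaks were at Hsp90b1 (447 bp), the chaperone GRP94 of the endoplasmic reticulum, and Atf4 (444 bp), the transcription factor of the amino acid response.

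Genes of energy metabolism and RNA production were reached at similar shares. Respiratory chain and ATP synthase subunits had 29 of 82 (35.4%), with the widest peaks at Ndufs1 (674 bp), the largest subunit of complex I, and Uqcr10 (626 bp), a complex III subunit whose peak no other list held. RNA polymerase subunits had 10 of 28 (35.7%), among them Polr2k (429 bp), shared by all 3 nuclear polymerases, and Polr1c (368 bp). Splicing factors had 19 of 59 (32.2%), with Lsm4 (481 bp), Srsf1 (458 bp) and Sf3a3 (427 bp) ahead. Some peaks served 2 such genes at once. One peak of 451 bp spanned starts of Mrpl47 and Ndufb5, one of 346 bp those of Mrpl32 and Psma2, and one of 179 bp those of Rps28 and Ndufa7.

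Genes of DNA replication and repair had shares above the background but below those of the ribosome. Replication and G1/S genes had 14 of 50 (28%), with Cdc45 (905 bp), a helicase component that shared its peak with Ufd1, and Mcm4 (751 bp), a helicase subunit that shared its peak with the repair kinase gene Prkdc. DNA repair genes had 17 of 57 (29.8%), among them Brca1 (524 bp), Ung (487 bp), a glycosylase that removes uracil, and Ercc5 (454 bp), a nuclease of excision repair. Of mitosis genes 8 of 42 had a peak (19%, interval 8.60 to 34.1), with the kinetochore genes Nuf2 (488 bp) and Ndc80 (436 bp) widest. The zinc finger genes named Zfp had 78 of 391 (19.9%), with Zfp142 (622 bp) and Zfp84 (585 bp) widest. Chromatin regulators had 14 of 78 (17.9%, interval 10.2 to 28.3), with Hdac4 (544 bp) and Kdm5a (531 bp) widest, while TEAD1-HA reached 65.4% of that list. The RHOX11-HA intervals for mitosis genes and chromatin regulators include the background over all genes.

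The lists of regulated and tissue-restricted genes had shares below 11.1%, but for most of them the 95% interval includes that background. Among fibroblast genes 3 of 40 had a peak (7.50%), at Col3a1 (230 bp), Loxl1 (219 bp) and Fn1 (176 bp). Collagens had 1 of 44 (Col3a1), immediate early genes 1 of 33 (Srf), circadian clock genes 1 of 17 (Tef), Hippo targets 1 of 23 (Ajuba) and p53 targets 2 of 28 (Sesn1 and Polk). Kinesins had 4 of 44 and replication-dependent histone genes 4 of 66. In the histone list 2 genes, Hist1h1e and Hist1h2be, shared 1 peak. Of 1091 olfactory receptor genes 2 had a peak (0.183%, interval 0.0222 to 0.661) and of 326 vomeronasal receptor genes none (up to 1.13%), and these intervals do not include 11.1%. Short lists carry wide intervals, for example 0.149 to 28.7% for the circadian clock list.

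The developmental genes and the genes of the tissue where RHOX11 is known were also reached little. Homeodomain transcription factor genes had 1 of 67 (1.49%, interval 0.0378 to 8.04), at Hmbox1 with a peak of 420 bp, while TEAD1-HA reached 70.1% of them. Hox genes had 0 of 39 for RHOX11-HA, which allows a share of up to 9.03%, against 48.7% for TEAD1-HA. Germ cell and meiosis genes had 0 of 50 (up to 7.11%), and Sertoli and testis somatic genes 0 of 32 (up to 10.9%), where TEAD1-HA reached 40% and 18.8%. For the germ cell list BHLHB8-HA reached 14% and DLX6-HA and TOX3-HA 0, so a count of 0 there was not particular to RHOX11-HA. No RHOX11-HA peak lay at a promoter or within the body of any of the 32 Rhox genes, Rhox11 included. The whole cluster, chrX:37213804-38129967 in mm10, held 0 RHOX11-HA peaks over 916 kb, and all other constructs together placed 2 peaks there. The genes for the other homeodomain constructs, Cdx2, Dlx1, Dlx6, Duxbl1, Nanog, Six6 and Pou5f1, held no RHOX11-HA peak either.

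**Figure D3:**
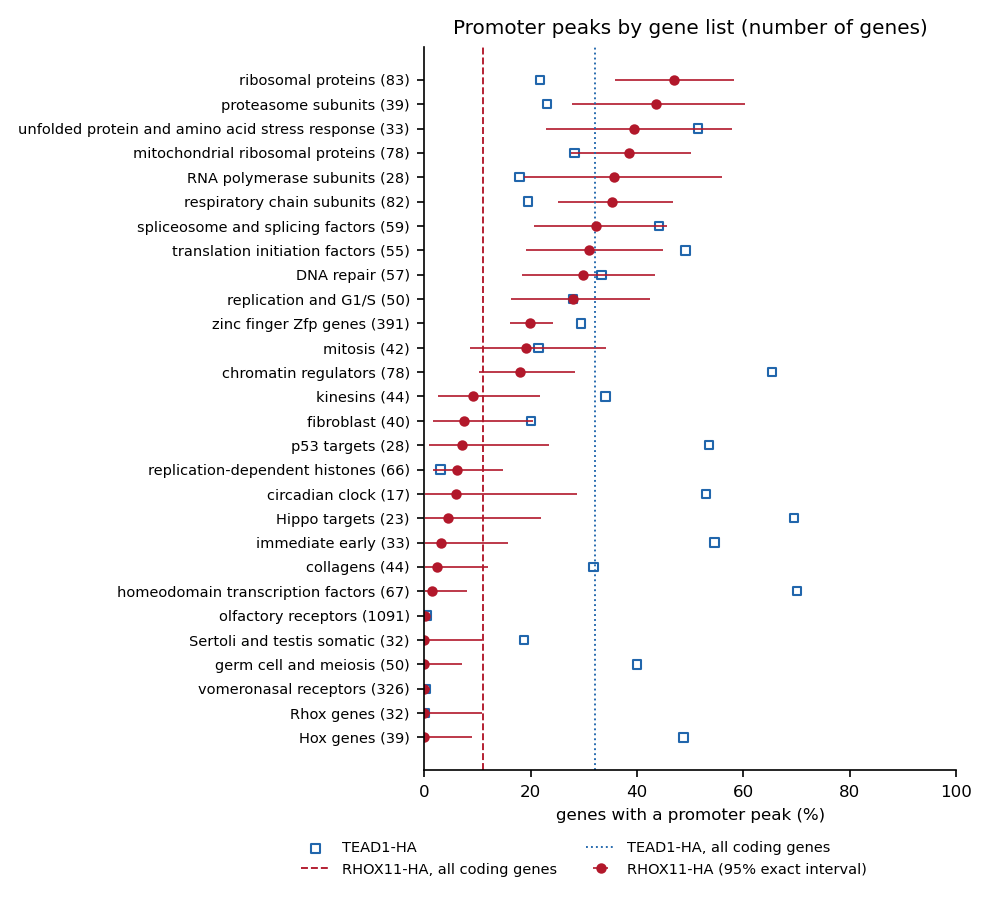
Percent of the genes of each list with a promoter peak (x axis) for RHOX11-HA (red points with 95% exact intervals) and TEAD1-HA (open blue squares), by list with its number of genes (y axis). Vertical lines mark the shares over all coding genes, 11.1% and 32.1%. Ribosomal protein genes lead for RHOX11-HA at 47.0%, and Hox, Rhox, germ cell, Sertoli and vomeronasal genes are at 0.

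The widest promoter peaks outside these lists lay at Hnrnpa3 (1582 bp), an RNA-binding protein gene, and 4931408C20Rik (1442 bp). They were held by 22 and 23 of the other 23 constructs, as wide sites often were. Other wide promoter peaks were held by few constructs. Rbm15 (900 bp), an RNA-binding protein gene, had 3, the pair Eny2 and Nudcd1 (857 bp) had 4, and the pair Rpain and Nup88 (828 bp) had BHLHB8-HA alone. The widest peak found for RHOX11-HA alone was 735 bp at Gsk3a, a glycogen synthase kinase. Further peaks of this kind lay at the pair Ppp1r10 and Mrps18b (643 bp), at Uqcr10 and Zmat5 (626 bp), at Maf1 and Sharpin (532 bp, Maf1 being a repressor of RNA polymerase III), and at Zfp146 (511 bp).

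The promoter windows with a RHOX11-HA peak were rich in CpG and in the ETS-type sequence. Over the central 200 bp the median G+C content was 61.5% with 16 CpG, and repeats covered 3.49% on average. CCGGAA on either strand occurred in 36.6% (34.5 to 38.7) of the 2058 promoter windows. It occurred in 1.74% of windows 5 kb downstream, in 12.4% of windows at the starts of genes with no RHOX11-HA promoter peak, and in 9.84% of other constructs' promoter peaks away from RHOX11-HA peaks. Of all 32851 RefSeq promoters in the table used here, which span 300 bases each and so are longer than the windows, 14.9% held it. Among the 16 other constructs with enough peaks the share ranged from 2.35% (CDX2-HA) to 16.9% (DLX6-HA). The longer CCGGAAGT, which contains CCGGAA, occurred in 12.4% of RHOX11-HA promoter windows, in 3.36% at the starts of the other genes, and in 0 to 4.90% across the other constructs.

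A count of all 7-base sequences put the same letters first. CCGGAAG occurred in 24.5% of RHOX11-HA promoter windows against 7.76% at the starts of genes without a peak, followed by ACTTCCG (19.4% against 5.53%), which overlaps it on the other strand. The first sequence not made of these letters was ACTACAA at rank 10, with 7.53% against 1.85%. It is part of ACTACAAT, known from ZNF143 sites, which stood at 1.94% against 0.417%. CCGGAA occurred 2 or more times in 218 windows, a count made without controls and with overlapping matches counted once. Of 1015 occurrences, 56.3% lay within 50 bp of the peak midpoint, the central 100 of the 200 bp. Even placement would also put a large part of them there, so little central clustering can be read from this value.

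The share of genes reached varied with CpG content and, within it, with CCGGAA. Split by the number of CpG in the 200 bp at their start, 1.18% of genes with 0 to 1 CpG, 18.5% of those with 10 to 14, 23.2% of those with 15 to 19 and 14.97% of those with 20 or more had a RHOX11-HA peak. In TEAD1-HA the same shares were 4.61, 27.8, 40.8 and 71.2%, with the highest in the most CpG-rich class. In DLX6-HA they were 2.19, 12.8, 12.2 and 9.38%, and in BHLHB8-HA 13.4, 59.7, 69.7 and 69.5%, so neither of these was highest in that class either. Within each of the 3 classes of 10 or more CpG, genes with CCGGAA at the start had a RHOX11-HA peak more often than genes without it: 31.2% against 14.7%, 33.8% against 18.9%, and 23.6% against 12.5%. For TEAD1-HA the genes with CCGGAA had the lower share in all 3, with 21.4% against 29.7%, 31.2% against 44.8%, and 64.7% against 73.1%. BHLHB8-HA had the higher share with CCGGAA in all 3 classes, as RHOX11-HA did (72.8% against 55.8%, 80.6% against 65.3%, and 79.2% against 66.6%). DLX6-HA had it in the first 2 (19.2% against 10.8% and 14.9% against 11.2%) and not in the last (9.03% against 9.48%). Over all genes, 26.3% with the sequence and 8.45% without it had a RHOX11-HA peak.

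Other promoter sequences differed by fewer percentage points. TGACGT, the core of the sequence bound by cAMP response factors, occurred in 12.3% of RHOX11-HA promoter windows against 5.91% at the starts of genes without a peak, and the full TGACGTCA in 2.67% against 1.84%. The GC box GGGCGG stood at 45.5% against 39.1%, the E-box CACGTG at 8.07% against 5.36%, AAGATGGC of YY1 at 4.28% against 2.48%, and GCGCATGC of NRF1 at 3.79% against 2.52%. The TATA sequence TATAAA was rarer, at 2.28% against 8.71%. All sequences were searched on both strands, and a match is a description of the letters in the window.

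The homeodomain core was no more frequent in the RHOX11-HA peaks than around them. TAATTA occurred in 0.632% of promoter windows, against 2.52% at the starts of genes without a peak. In distal windows it occurred in 2.66% (2.07 to 3.36), against 6.80% of windows 5 kb downstream and 3.26% of the larger set of control windows that was weighted to the G+C content of the peaks. Among the other constructs' distal peaks the share reached 14.1% in CDX2-HA and 10.5% in DLX6-HA, both homeodomain factors. SIX6-HA, also a homeodomain factor, had 2.17%, below RHOX11-HA, and the lowest share was 1.52% in TOX3-HA. In promoter peaks the other constructs ranged from 0.202% (TOX3-HA) to 10.7% (CDX2-HA). The sequence TAATCC, preferred by bicoid-type homeodomains, occurred in 6.74% of distal windows against 8.49% downstream. GCTGTAA, searched as a candidate only, occurred in 3.69% of distal windows against 2.22% downstream, and in 2.67% of promoter windows against 1.85% at the starts of genes without a peak.

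Distal RHOX11-HA windows had a median G+C content of 48.5% and 2 CpG, and repeats covered 27.1% on average. TGACTCA was present in 9.40% (8.29 to 10.6) of them against 2.49% downstream. The share was 13.6% in distal peaks shared with another construct and 2.61% (1.70 to 3.83) in those of RHOX11-HA alone, close to the downstream value. In the other constructs the share of distal peaks with TGACTCA ran from 1.86% (TEAD1-HA) to 30.4% (DLX1-HA).

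Most RHOX11-HA peaks were also peaks of another construct. In all, 74.2% (72.9 to 75.5) overlapped by 1 bp or more with some peak of the 23 other constructs, or 89.2% of promoter peaks and 62.0% of distal peaks. With an overlap of 50% of both peaks required, the share over all peaks was 47.7%. Sites held by 10 or more other constructs made up 4.15% of the list, 7 promoter peaks and 183 distal ones. At 2 sites all 23 others had a peak, the promoter of 4931408C20Rik and an intron of Zfp600 (1330 bp). The widest distal peaks were mostly of this widely shared kind. They lay in an intron of Thap1 (1882 bp, 15 other constructs), in exons of Hmgb1 (1749 bp, 20), Rpl21 (1331 bp, 20), Gapdh (1227 bp, 21) and Rps2 (1052 bp, 22), and on the Y chromosome nearest to Gm21860 (1306 bp, 21). Hmgb1, Rpl21, Gapdh and Rps2 are highly expressed genes with many processed pseudogenes; what part such copies have in these peaks was not tested.

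BHLHB8-HA, with the most peaks after its 2 replicate lists were merged, held 62.2% of RHOX11-HA peaks, 79.3% at promoters and 48.2% of distal peaks. Its single lists held 51.7% (replicate 2) and 47.3% (replicate 1) of RHOX11-HA peaks. Even placement would give 2.68% for the merged peaks. These shared sites made up 3.42% of the 83627 merged BHLHB8-HA peaks, and with a reciprocal overlap of 50% the share of RHOX11-HA peaks was 19.7%. Of the 626 promoter peaks with 1 other construct, that construct was BHLHB8-HA at 487 (77.8%). By genes, BHLHB8-HA reached 90.6% of the RHOX11-HA genes, which were 21.6% of its own, beside its 46.8% of all genes. That background was not matched for CpG content. BHLHB8-HA reached 69.7% of genes with 15 to 19 CpG at the start and 69.5% of those with 20 or more. Of the RHOX11-HA genes 86 (3.54%) had a promoter peak of no other construct, while 59.98% of all genes had a promoter peak of some other construct.

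TEAD1-HA overlapped RHOX11-HA almost only at promoters. It held 30.0% (28.01 to 32.0) of RHOX11-HA promoter peaks and 1.82% (1.34 to 2.43) of distal ones. The RHOX11-HA peaks at its promoters were 9.08% of its own promoter peaks. With 50% reciprocal overlap the share of all RHOX11-HA peaks fell to 3.95% from 14.5%. TEAD1-HA peaks were wider, with a median of 337 bp. By genes, TEAD1-HA reached 42.6% of the RHOX11-HA genes, beside its 32.1% of all genes. That background was not matched for CpG content. TEAD1-HA reached 40.8% of genes with 15 to 19 CpG at the start and 71.2% of those with 20 or more. The 42.6% can thus not be read as an excess over genes of like CpG content.

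The distal sharing was spread over more constructs. DLX6-HA and DLX1-HA, a pair of related homeodomain factors, held 26.7% and 25.1% of distal RHOX11-HA peaks and 22.1% and 20.8% of promoter peaks. SOX2-HA (26.0%) and SIX6-HA (24.4%) held like shares of distal peaks and 6.17% each of promoter peaks. FOXA1-HA, HLF-HA, SOX15-HA, SOX2-YPET OCT4-HA and EBF1-HA each held 15.03 to 16.2% of distal peaks. CDX2-HA, with more peaks than DLX6-HA, held 10.9%. As shares of their own lists, the overlap was 12.1% for SIX6-HA, 5.38% for DLX6-HA and 1.18% for CDX2-HA. The shortest lists overlapped RHOX11-HA sites at high shares, with 69.0% of 58 THAP4-HA peaks, 85.5% of 62 PRR3-HA peaks, 63.9% of 119 merged OCT4-HA peaks, 75.5% of 147 FOXA1_SW-HA peaks, 59.6% of 151 FOXA1_RR-HA peaks and 49.0% of 396 NANOG-HA peaks. All of these short lists had a peak at the Rps2 site, held by 22 other constructs. How many of their overlaps fell at such widely shared sites was not counted. These shares can thus not be read as particular to RHOX11-HA.

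**Figure D4:**
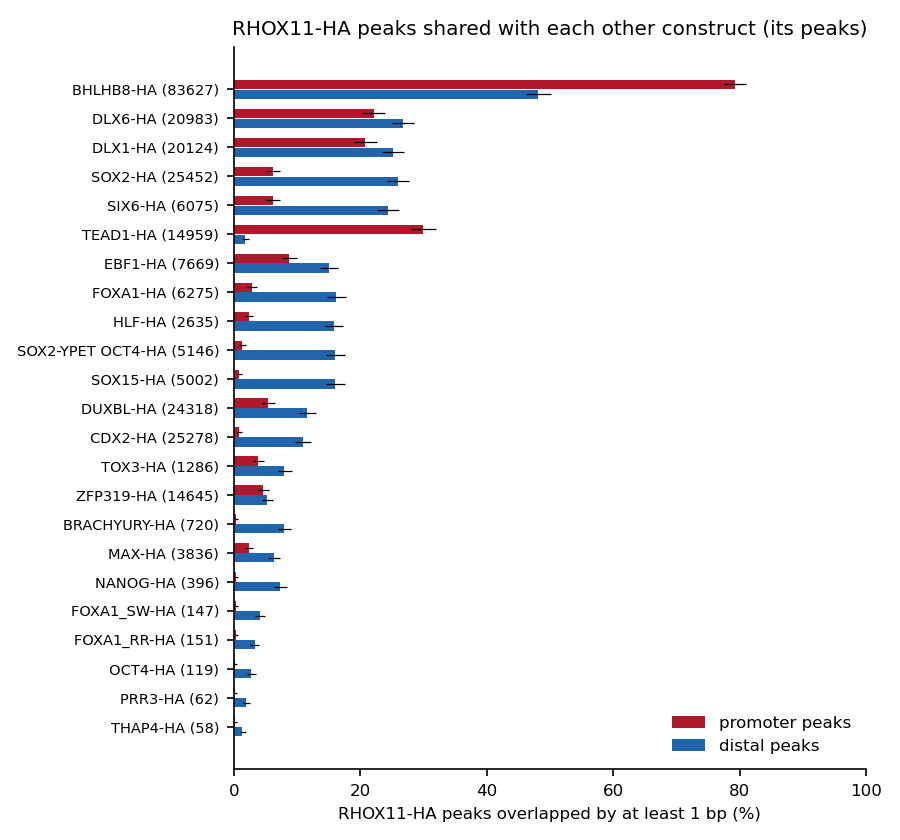
Percent of the RHOX11-HA promoter peaks (red bars) and distal peaks (blue bars) overlapped by at least 1 bp (x axis), for each other construct with its number of merged peaks (y axis); black lines are 95% exact intervals. BHLHB8-HA overlaps most of both (79.3% and 48.2%), and TEAD1-HA overlaps 30.0% of promoter peaks and 1.82% of distal peaks.

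The 1180 RHOX11-HA peaks found for no other construct (25.8%) were mostly distal, 957 against 223 at promoters. The 223 promoter peaks held CCGGAA in 33.2% (27.0 to 39.8), TGACGT in 17.5% (12.7 to 23.1) and TGACGTCA in 5.83% (3.14 to 9.76), beside 36.6, 12.3 and 2.67% of all RHOX11-HA promoter peaks. The 957 distal ones had a median G+C content of 46.5% and a mean repeat cover of 31.5%. They were unevenly placed, since 710 of them (74.2%, interval 71.3 to 76.9) lay on chromosomes 1, 5 and 15, which hold 16.6% of the genome and 21.2% of RHOX11-HA promoter peaks. Their density was 1.57 per Mb there and 0.109 per Mb elsewhere. Of the other chromosomes the highest had 0.505 per Mb (chromosome 19). The same share for distal peaks found in only 1 list ranged from 17.2% (TOX3-HA, 29 peaks) to 47.5% (HLF-HA, 301 peaks) in the 16 other constructs with at least 1000 peaks. Chromosomes 1, 5 and 15 were singled out after their values were seen. The number of copies of each chromosome in these cells was not analysed here, and its part in these densities was not tested.

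By chromosome, the density of all RHOX11-HA peaks was highest on chromosome 5, with 814 peaks or 5.36 per Mb, against 1.68 per Mb over the genome. Chromosome 15 (3.58 per Mb) and chromosome 1 (3.47 per Mb) followed, then chromosomes 19 (2.88) and 11 (2.80). Chromosomes 1, 5 and 15 together held 40.7% of RHOX11-HA peaks. Of the 16 other constructs SOX2-YPET OCT4-HA had a higher share there, 48.6%, and the lowest was 21.1% in EBF1-HA. Chromosomes 19 and 11 were the densest in promoter peaks, with 1.79 and 1.70 per Mb, and chromosome 13 was the lowest autosome at 0.365. The X chromosome held 25 peaks (0.146 per Mb) and the Y chromosome 7. On the X chromosome 1.27% of coding genes had a RHOX11-HA promoter peak, while the autosomes ranged from 6.74% (chromosome 13) to 17.5% (chromosome 19). Few peaks on the X chromosome were common to the series, with 0.546% of RHOX11-HA peaks and a median of 0.832% over the other constructs.

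**Figure D5:**
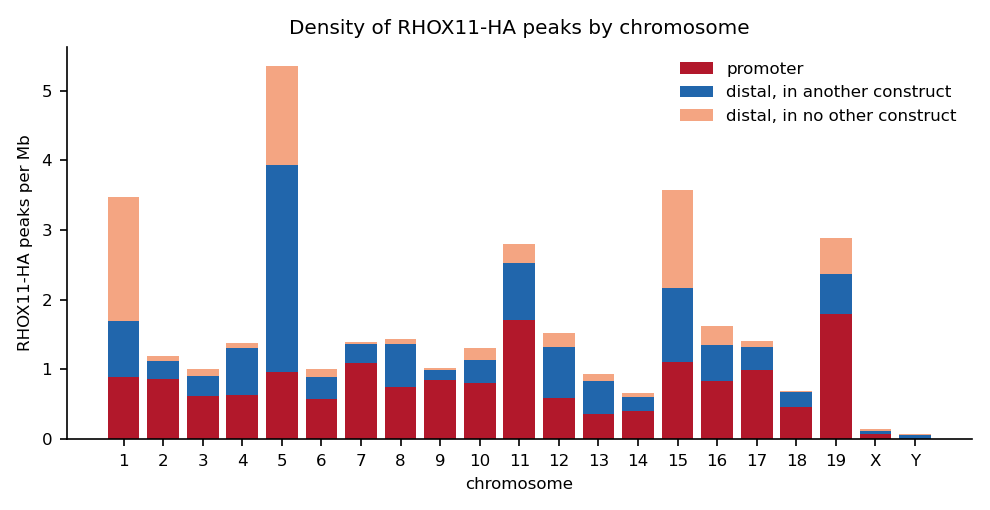
RHOX11-HA peaks per Mb (y axis) on each chromosome (x axis), stacked as promoter peaks (red), distal peaks also held by another construct (blue) and distal peaks held by no other (orange). Chromosome 5 reaches 5.36 per Mb, and the orange part is tallest on chromosomes 1, 5 and 15.

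At a scale of 1 Mb, 1393 of 2737 bins held a RHOX11-HA peak, and 15 bins with 20 or more held 761 peaks (16.6%), of which 22 were promoter peaks. The 3 densest lay on chromosome 5. The bin from 6 to 7 Mb held 110 peaks, around Zfp804b, the bin from 7 to 8 Mb held 107, around Steap4 and Tex47, and the bin from 10 to 11 Mb held 100, around Gm5152, Gm8857 and Gm8871. No promoter peak lay in any of these 3 bins. In them 37.3, 33.6 and 43.0% of the peaks were found for no other construct, beside 38.0% of all distal RHOX11-HA peaks. The stretch of chromosome 5 from 3 to 11 Mb, also chosen after its values were seen, held 511 peaks, or 11.2% of the list. The same stretch held 14.6% of SOX2-YPET OCT4-HA peaks, 5.88% of HLF-HA, 3.92% of SIX6-HA and a median of 1.22% over the 16 other constructs. Further dense bins lay on chromosome 12 (54 peaks, among 37 immunoglobulin variable genes) and on chromosome 8 (46 peaks, near the defensin gene Defb33).

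Few of these peaks shared sequence with one another. In all, 77 peaks (1.68%) had a central sequence with at least 90% identity over at least 150 bases to another RHOX11-HA window, 76 of them distal. In the chromosome 5 stretch they were 13 of 511. In the bin from 15 to 16 Mb of chromosome 5, with 53 peaks near the Speer4 genes, they were 17 (32.1%). The largest family had 7 windows. Repeats covered 46.0, 47.2 and 41.9% of the windows in the 3 densest bins, above the 27.1% of all distal windows. Across all 2737 bins the counts of RHOX11-HA promoter peaks followed those of BHLHB8-HA with a Spearman correlation of 0.70 and those of TEAD1-HA with 0.64, and for distal peaks the values were 0.47 and 0.38. Bins share gene density and mappable length, so these correlations describe the lists and carry no test.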

How the data were processed

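The processed data were BED lists of peak positions. Per the labels and the study's methods, the authors aligned paired reads to mm10 with STAR 2.5.3a, removed duplicates with Picard, called peaks per sample with MACS2 2.1.1.20160309, and dropped peaks lying on input peaks or on blacklisted parts of the genome. The deposited lists give the chromosome, start and end alone, with no peak height, p-value or read depth. Peaks were placed on GRCm38.p6 with GENCODE M21 starts of protein-coding genes (Python 3.11.15, scipy 1.17.1, pysam 0.24.0). A promoter peak had its midpoint within 1 kb of a start, and overlap meant at least 1 bp, with replicate lists of 1 construct merged. Shares carry 95% Clopper-Pearson intervals, and the 3 comparisons of promoter shares used a two-sided Fisher's exact test with Benjamini-Hochberg adjustment. Sequences were searched on both strands in the central 200 bp. Shared sequence was found with BLAST+ 2.17.0. The code for overlaps, searches and tests was tested on simulated data.

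The members and lists were chosen with earlier results of these data known. Genes were named by rule: the Rhox genes and the genes of homeodomain constructs, the 25 widest promoter, 15 widest distal and 10 widest unshared peaks, up to 8 members of each gene list with the widest peaks, and genes of the 3 densest bins and of sites held by all constructs. Peaks named for a shared pair of genes, or for overlapping no other list, were picked after their values were seen. Some results are not reported here.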

Additional observations from a re-analysis of the deposited data

How the results depend on the processing

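The list is 1 sample without heights or depth, so no result here carries replicate error, and intervals cover counting alone. No paired analysis was possible because RHOX11-HA, TEAD1-HA, TOX3-HA and SIX6-HA have 1 list each. The promoter share of 44.9% moved to 43.2% with a 500 bp window, 61.3% in peaks of at least 300 bp, 46.7% outside sites of 10 or more other constructs, 50.3% without chromosome 5 from 3 to 11 Mb, and 59.7% without chromosomes 1, 5 and 15. The log2 odds ratio to TEAD1-HA of -0.02 turned positive under the same settings. It was 0.084 (exact adjusted p = 0.0905), 0.18 (0.0345), 0.082 (0.102), 0.28 and 0.74. That to TOX3-HA fell to 0.19 (exact adjusted p = 0.0721) outside sites of 10 or more others. The comparison with SIX6-HA kept its call under all these settings. With peaks of at least 300 bp, 1079 genes were reached, 90.6% of peaks overlapped another construct, 9.08% lay at sites of 10 or more, 79.97% overlapped BHLHB8-HA and 20.96% TEAD1-HA, and the densest chromosome and bin, both on chromosome 5, held 1.48 and 30 per Mb. With 50% reciprocal overlap those 4 overlap shares were 47.7, 2.05, 19.7 and 3.95%, and without the chromosome 5 stretch BHLHB8-HA stood at 64.8% and TEAD1-HA at 16.0%. The excess of CCGGAA at promoters over windows downstream, 34.8 percentage points, was 24.1 against starts of genes without a peak, 26.8 against other constructs' promoter peaks, 22.3 in the central 100 bp and 30.0 with controls weighted to G+C. The excess of TGACTCA at distal peaks, 6.91 points, was 3.62 in the central 100 bp, and the deficit of TAATTA fell to -0.61 points with weighted controls. The settings without chromosomes or stretches, and the controls at gene starts and at other constructs' peaks, were chosen after seeing the data. The chromosomes and the stretch left out were picked for their many distal RHOX11-HA peaks. A higher RHOX11-HA promoter share without them follows largely from that choice. Over 28 gene lists and 5 alternatives each, 120 shares stayed within the main interval and 20 left it. All 20 came with peaks of at least 300 bp. There ribosomal proteins stood at 26.5%, proteasome subunits at 23.1% and mitochondrial ribosomal proteins at 16.7%. The background over all genes also fell with these peaks, from 2431 to 1079 of 21853 genes, so these shares are not to be set against 11.1%. The cause of these shifts was not tested.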
